A study of Mus musculus with 6 samples.

Results

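Guidance genes encode the signals and receptors that steer growing axons, migrating cells and sprouting vessels. The 66 genes described here are the Eph receptors, ephrins, semaphorins, plexins, neuropilins, Slit and Robo genes, netrins and Unc5 receptors whose symbols follow the naming of these families in the array's annotation. They are 66 of the 18193 genes on the array that had a probe set with a single gene symbol, and the naming rule uses no measured value. Where a gene had several probe sets, as 44 of the 66 did, the brightest on average over the 6 arrays stood for it.

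Levels were measured in whole uterus from female mice of 4 weeks on 3 mutant and 3 control Affymetrix arrays. Mutant mice (Pgr cre/+ Ctnnb1 f(ex3)/+) carried Cre recombinase in the progesterone receptor gene together with 1 copy of Ctnnb1 in which Cre removes exon 3, so that β-catenin escapes degradation. Control mice are given as wild type on the arrays' labels and, in the text of the study, as Pgr cre/+ and Ctnnb1 f(ex3)/+. Cre from the Pgr gene acts in all cells that express Pgr, in the ovary and pituitary as well as in the epithelium, stroma and muscle of the uterus, and by the methods the RNA of several uteri was pooled for each genotype. It is not stated whether the 3 arrays of a group are separate pools, separate animals or repeats of 1 pool. The p-values below therefore measure the spread between arrays, part or all of which may be technical.

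Guidance signals work as pairs of a ligand and a receptor on the responding cell. Slit proteins are secreted and bind Robo receptors, netrins are secreted or matrix-bound and signal through Dcc and neogenin or, for repulsion, through Unc5 receptors, and semaphorins act through plexins, those of class 3 mostly with a neuropilin as partner. Ephrins are tethered to the cell surface and bind Eph receptors on a neighbouring cell, with signalling into both cells. Outside the nervous system the same families act in vessel growth and in the placement of epithelial and stromal cells, and in the intestine Ephb and ephrin-B genes respond to β-catenin and its TCF partners.

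β-catenin reaches DNA through TCF and LEF proteins, so the 250 bases before the transcription start were searched for a core motif of these proteins on both strands, in 4 spellings that begin CTTTG and end in AA, in AT, in TA or in TT. The promoters of the 3 guidance genes with the largest called rise in the mutant and of the gene with the largest fall are shown, each read 5′ to 3′ along its gene from RefSeq sequence of build GRCm38.p6, with any match in capitals. The window of Robo1 is chr16:72662899-72663148 on the plus strand, that of Slit2 chr5:47982905-47983154 on the plus strand, that of Unc5b chr10:60831582-60831831 on the minus strand and that of Sema3e chr5:14025026-14025275 on the plus strand.
Robo1: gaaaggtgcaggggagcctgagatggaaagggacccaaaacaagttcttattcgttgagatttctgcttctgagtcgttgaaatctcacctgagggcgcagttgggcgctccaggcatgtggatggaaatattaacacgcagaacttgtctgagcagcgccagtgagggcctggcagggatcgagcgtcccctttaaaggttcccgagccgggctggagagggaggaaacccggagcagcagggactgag
Slit2: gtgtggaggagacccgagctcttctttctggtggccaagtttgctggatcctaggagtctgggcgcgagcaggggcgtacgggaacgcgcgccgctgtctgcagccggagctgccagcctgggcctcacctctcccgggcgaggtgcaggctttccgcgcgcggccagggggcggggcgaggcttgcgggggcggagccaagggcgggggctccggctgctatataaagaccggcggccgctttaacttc
Unc5b: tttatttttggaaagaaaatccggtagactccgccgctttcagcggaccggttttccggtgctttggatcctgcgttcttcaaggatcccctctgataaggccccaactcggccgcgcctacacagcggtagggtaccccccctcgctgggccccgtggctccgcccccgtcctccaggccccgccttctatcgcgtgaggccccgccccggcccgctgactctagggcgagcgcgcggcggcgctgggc
Sema3e: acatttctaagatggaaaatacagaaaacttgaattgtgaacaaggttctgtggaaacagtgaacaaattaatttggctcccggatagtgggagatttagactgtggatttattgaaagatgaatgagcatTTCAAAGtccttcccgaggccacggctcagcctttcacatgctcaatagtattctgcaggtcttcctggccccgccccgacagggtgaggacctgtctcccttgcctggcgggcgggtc

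A promoter sequence was found for 57 of the 66 genes, including all 12 that were called. The match in Sema3e is CTTTGAA on the opposite strand, 119 bases upstream of the start. No other called guidance gene held one of the 4 spellings in this window. Of the 73 promoters of guidance genes 6 held a match (8.219%), against 4874 of 32851 promoters in the whole table (14.84%) and 2164 of 18109 promoters of the genes tested (11.95%). A match is a description of letters, and its absence from these 250 bases says nothing about TCF or LEF binding elsewhere.

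The labels were checked against genes that the genotype and tissue lead one to look at. Ctnnb1 lay between 11.72 and 11.93 in mutant arrays and between 11.51 and 11.54 in control arrays on the log2 intensity scale (limma, adjusted p = 0.0498), and no source used here places its probes inside or outside exon 3. Lef1, a β-catenin partner and target, lay between 7.67 and 7.98 in mutant arrays and between 5.29 and 5.57 in control arrays. Of 10 listed uterine identity genes 2 were called higher and 3 lower in the mutant. Amhr2 (log2 fold change 5.56) and Foxa2 (1.54) were higher, and Wnt7a (-1.71), Pgr (-0.97, adjusted p = 0.0027) and Emx2 (-0.62) were lower. Hoxa10 (0.07), Hoxa11 (0.15) and Esr1 (0.20) were not called. The mutants carry Cre in the Pgr gene, which wild-type controls would not. For the fall of Pgr this insertion and stabilized β-catenin cannot be told apart. Median intensity lay between 7.32 and 7.42 in mutant arrays and between 7.23 and 7.41 in control arrays, and 62.3% to 62.6% of probe sets were below an intensity of 16 on each array. Over 19 cell cycle genes the mutant arrays averaged 6.36 to 6.93 on the log2 scale and the control arrays 6.69, 4.40 and 6.81, so that control replicate 2 stood apart.

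Of the 66 guidance genes, 5 were higher and 7 were lower in the mutant uterus at an adjusted p under 0.05, from a limma fit over all 18193 genes. The higher genes were Robo1, Slit2, Unc5b, Unc5c and Sema7a. The lower genes were Sema3e, Sema4a, Sema4b, Efnb2, Plxnc1, Efna5 and Plxna3. These are 7.58% of guidance genes higher, against 5.61% of all genes, and 10.6% lower, against 6.36% of all genes. Every mutant array lay above every control array for 13 guidance genes (19.7%, against 14.9% of all genes) and below every control array for 14 (21.2%, against 17.4%). The median log2 fold change was -0.03 for guidance genes and -0.01 for all genes. The arrays have no detection calls, and 22 of the 66 had a mean intensity below 16 in both groups. Among the other 44, 11.4% were higher and 13.6% were lower, against 8.08% and 9.88% of the 10503 genes at that level.

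The calls depended on single arrays. Leaving out control replicate 1 left 3 guidance genes higher and 1 lower, and over all genes 480 higher and 372 lower in place of 1021 and 1157. Without control replicate 2, the array that stood apart in cell cycle genes, 6 guidance genes were higher and 2 lower, with 722 and 682 over all genes. Without mutant replicate 2 the guidance genes numbered 5 higher and 2 lower, with 580 and 493 over all genes, and without mutant replicate 3 they numbered 6 and 2, with 731 and 760. Robo1, Slit2, Unc5b and Sema3e passed the test whichever array was left out. Averaging all probe sets of a gene ended the calls of Unc5c, Sema7a, Sema4b, Plxnc1 and Efna5, moved Sema3e to -1.11 and Efnb2 to -0.30 with their calls kept, and added Slit1, Nrp1, Epha7, Efna3, Sema3b and Sema3g to the called genes. With each gene tested on its own variance alone, by the test the methods name, no guidance gene passed after adjustment, while 9 were higher and 11 lower at an unadjusted p under 0.05, and over all genes 105 were higher and 39 lower after adjustment. Because the samples are whole tissue, fewer cells of a type and less RNA per cell cannot be told apart.

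**Figure D1:**
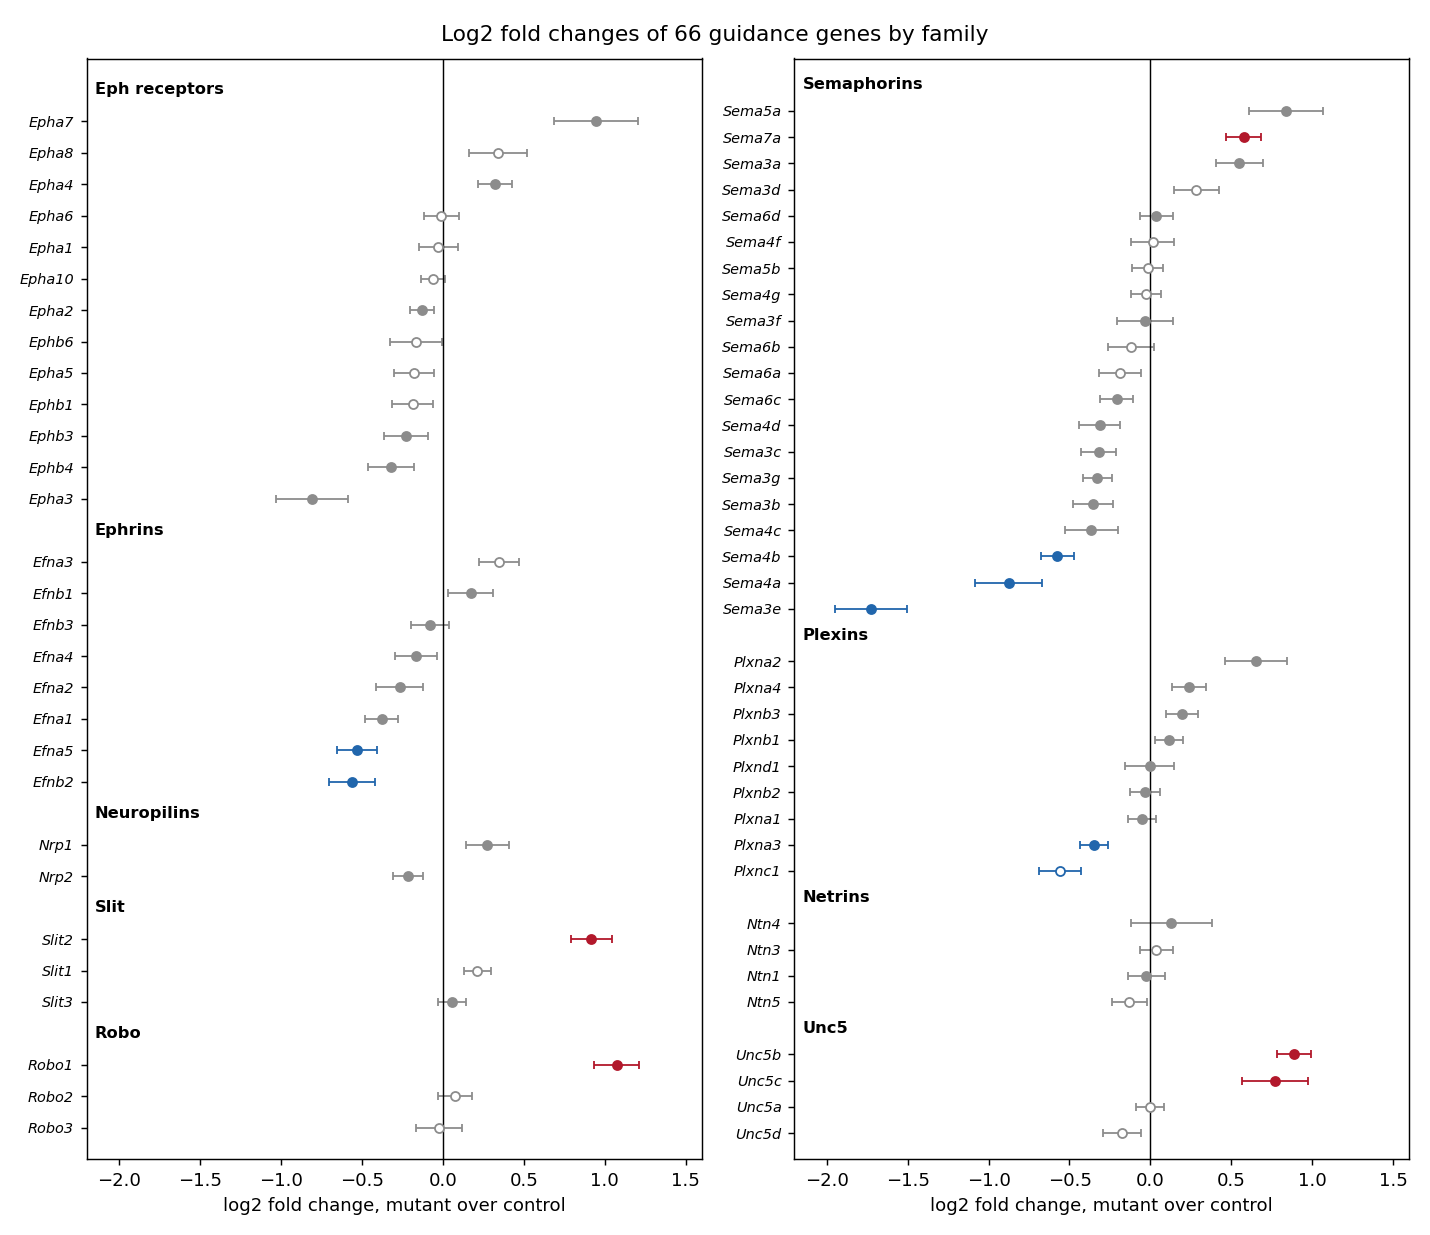
Log2 fold change of each of the 66 guidance genes, mutant over control, by family, with bars showing the standard error from limma over 3 arrays a group. Red genes were called higher and blue genes lower at an adjusted p under 0.05, gray genes were not called, and open circles had a mean intensity below 16 in both groups. The values run from -1.72 for Sema3e to 1.07 for Robo1, and no Eph receptor, neuropilin or netrin was called.

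The Slit and Robo genes were led by 1 ligand and 1 receptor. Robo1, a receptor for Slit proteins, had log2 intensities of 7.16, 7.63 and 7.62 in mutant arrays, against 6.43, 6.49 and 6.28 in control arrays. Slit2, a secreted Slit ligand, had 5.88, 6.21 and 6.19 in mutant arrays, against 5.12, 5.37 and 5.03 in control arrays. For both genes the lowest mutant array was replicate 1 and it still lay above all control arrays. Robo1 was 2.11-fold higher (log2 fold change 1.07, SE 0.14, adjusted p = 0.00402) and Slit2 was 1.89-fold higher (0.92, SE 0.13, adjusted p = 0.0053). The differences were larger than the spread within either group, with SDs of 0.27 and 0.11 for Robo1 and of 0.18 and 0.17 for Slit2 in mutant and control arrays.

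The other members of both families did not pass the test. Slit1 averaged 3.89 ± 0.05 in mutant arrays and 3.68 ± 0.08 in control arrays (SD, n = 3 each) with no overlap of the groups, at an adjusted p of 0.145 in limma. Its dimmer second probe set was higher by 0.69 (adjusted p = 0.00679 over all probe sets), and with both averaged Slit1 was higher by 0.45 (adjusted p = 0.0083). Slit3, the third Slit ligand, had a log2 fold change of 0.06 (SE 0.09). Robo2 and Robo3 lay below an intensity of 16 on all arrays, with log2 fold changes of 0.07 and -0.02. Robo4, an endothelial member of the receptor family that the naming rule leaves out, averaged 5.05 ± 0.03 in mutant arrays and 4.70 ± 0.16 in control arrays (log2 fold change 0.35, adjusted p = 0.0619). The less bright probe sets of Robo1 (0.12 and 0.25) and Slit2 (0.23 and 0.22) all had means of 2.29 or lower and were not called, so each call rests on 1 probe set. With all probe sets of a gene averaged, Robo1 differed by 0.48 and Slit2 by 0.46, and both still passed the test.

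The receptors of the netrin group split into genes that were higher and genes that were lower, with netrins themselves in neither set. Unc5b, a repulsive netrin receptor known in vessels, had log2 intensities of 5.21, 4.96 and 5.21 in mutant arrays, against 4.10, 4.29 and 4.33 in control arrays. It was 1.85-fold higher (log2 fold change 0.89, SE 0.10, adjusted p = 0.0027), and its second probe set was also higher (0.99, adjusted p = 0.000905 over all probe sets). Unc5c, a related receptor, had 3.97, 3.74 and 4.56 in mutant arrays, against 3.14, 3.37 and 3.45 in control arrays. Its log2 fold change of 0.77 (SE 0.20) was just inside the threshold at an adjusted p of 0.0478, its mutant arrays were the more spread, and the gene failed the test without any one array except mutant replicate 2, with adjusted p up to 0.158. A second, dimmer probe set of Unc5c gave 0.22 and was not called. Unc5a and Unc5d were near or below a log2 intensity of 3, with log2 fold changes of -0.00 and -0.17.

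Ntn1, the founding secreted netrin, had log2 intensities of 8.08, 8.04 and 7.86 in mutant arrays, against 8.02, 8.20 and 7.83 in control arrays. The groups overlapped, and the log2 fold change was -0.02 (SE 0.12). Ntn4, a netrin of basement membranes, had 7.25, 7.28 and 7.01 in mutant arrays, against 7.07, 7.59 and 6.48 in control arrays, so the control arrays alone spanned more than 1 unit on the log2 scale. Ntn3 and Ntn5 were below an intensity of 16 on all arrays. Ntn4's log2 fold change of 0.13 had an SE of 0.25, the widest in the family, and a p that misses the threshold does not show equal levels.

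Dcc and Neo1, the other netrin receptors, were both lower in the mutant. Dcc had 2.86, 2.20 and 1.96 in mutant arrays, against 3.46, 3.29 and 3.65 in control arrays (log2 fold change -1.13, SE 0.22, adjusted p = 0.0182), all of them below an intensity of 16, where log2 differences are uncertain. Neo1, which encodes neogenin, had 7.38, 7.19 and 6.93 in mutant arrays, against 7.95, 8.30 and 7.71 in control arrays (-0.82, SE 0.17, adjusted p = 0.0228). The groups did not overlap for either gene. Both calls were lost without mutant replicate 2 or control replicate 1, that of Dcc also without control replicate 3 and that of Neo1 also without mutant replicate 3, where the adjusted p reached 0.0755 for Dcc and 0.0773 for Neo1. Rgma, a membrane-anchored neogenin ligand, averaged 4.32 ± 0.26 in mutant arrays and 5.15 ± 0.14 in control arrays (-0.83, adjusted p = 0.011), and its relative Rgmb differed by -0.27 (adjusted p = 0.0858).

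**Figure D2:**
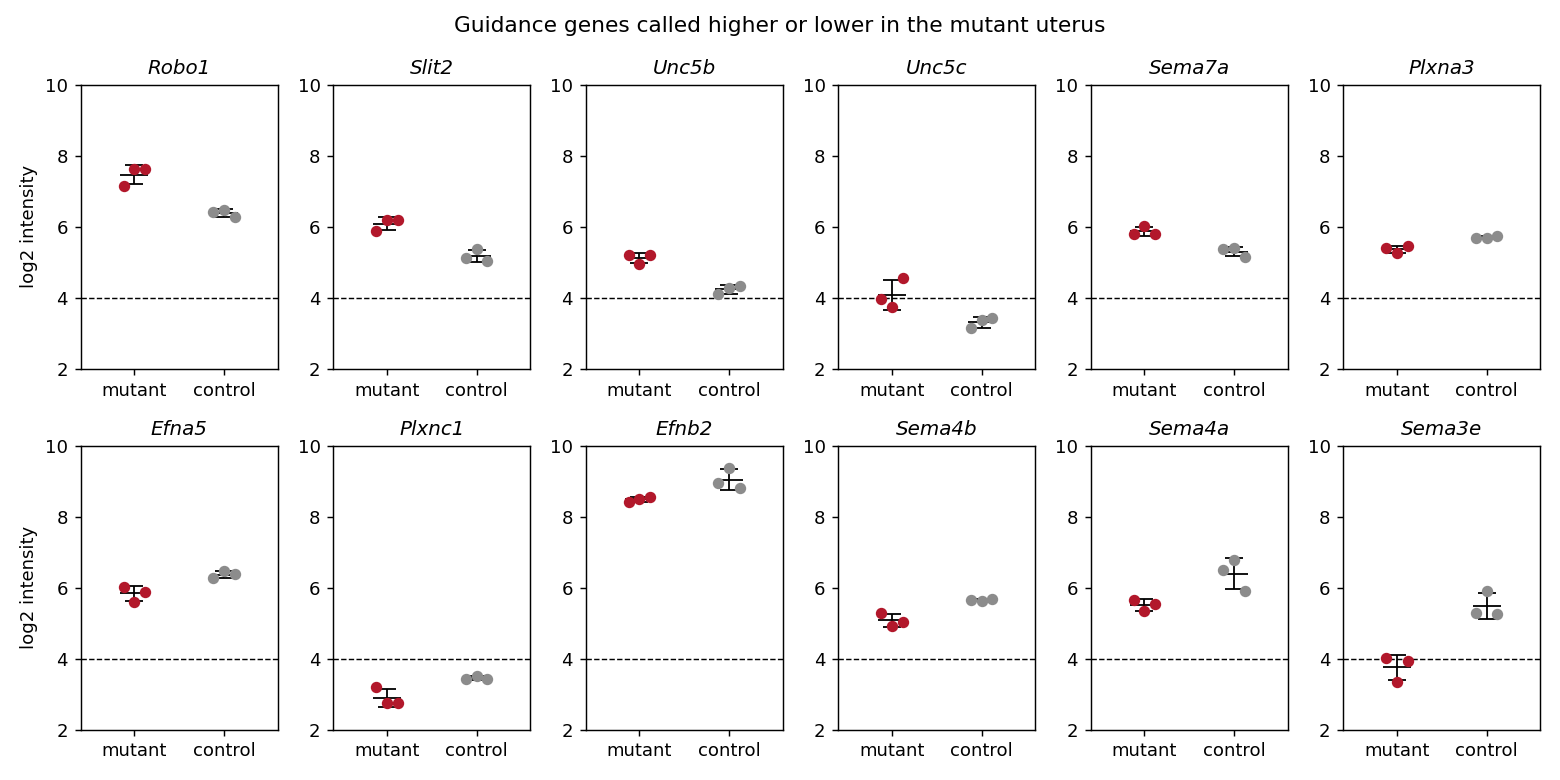
Log2 intensity on each array of the 12 guidance genes that passed the test, with mutant arrays in red left of control arrays in gray, and black marks showing the mean and SD of 3 arrays. The dashed line is a log2 intensity of 4 (an intensity of 16), and the groups are apart for all 12 genes, most widely for Sema3e.

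Semaphorins held the largest fall of the guidance genes. Sema3e, a secreted class 3 semaphorin that binds plexin D1 without a neuropilin, had log2 intensities of 4.01, 3.36 and 3.92 in mutant arrays, against 5.30, 5.90 and 5.26 in control arrays. Its mutant level was 0.303 of control (log2 fold change -1.72, SE 0.22, adjusted p = 0.00388), and the gap between the highest mutant array and the lowest control array was larger than the range within either group. Of its 4 probe sets 3 were called lower, with log2 fold changes of -1.72, -1.56 and -0.96, and the dimmest was not (-0.21). Its receptor gene Plxnd1 had 7.14, 7.05 and 6.62 in mutant arrays, against 7.11, 6.91 and 6.80 in control arrays, with a log2 fold change of -0.01 (SE 0.15) and overlapping groups.

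Sema4a and Sema4b, membrane-bound class 4 semaphorins, were also lower. Sema4a had 5.66, 5.34 and 5.54 in mutant arrays, against 6.49, 6.77 and 5.91 in control arrays (log2 fold change -0.88, SE 0.21, adjusted p = 0.0343). Its control arrays were the more spread, and although a second probe set gave the same change (-0.87, adjusted p = 0.0127 over all probe sets), the gene failed the test without any one array except control replicate 3, with adjusted p up to 0.125. Sema4b had 5.27, 4.93 and 5.04 in mutant arrays, against 5.65, 5.63 and 5.69 in control arrays (-0.58, SE 0.10, adjusted p = 0.0129), and its 3 control arrays lay within 0.1 of each other. Its call was lost without control replicate 1, at an adjusted p of 0.0565. A dim second probe set of Sema4b gave 0.18 and was not called.

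Sema7a was the 1 semaphorin called higher. This GPI-anchored protein signals through plexin C1 and β1 integrin, and had 5.80, 6.03 and 5.81 in mutant arrays, against 5.37, 5.40 and 5.15 in control arrays (log2 fold change 0.58, SE 0.11, adjusted p = 0.0146). The call was lost without control replicate 1, at an adjusted p of 0.0517. A dim second probe set of Sema7a gave 0.05 and was not called. Plxnc1, its plexin, was lower, with 3.19, 2.75 and 2.76 in mutant arrays, against 3.42, 3.52 and 3.44 in control arrays (-0.56, SE 0.13, adjusted p = 0.0318). All Plxnc1 values lay below an intensity of 16, and the gene failed the test without any one array except mutant replicate 1, with adjusted p up to 0.109. Its other, dimmer probe sets gave -0.18 to -0.01 and were not called. Itgb1, the integrin subunit, had a log2 fold change of -0.21 and Itga1, one of its α partners, of 0.46 (adjusted p = 0.0602).

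The other 16 semaphorins did not pass the test, and their log2 fold changes ran between -0.37 for Sema4c and 0.84 for Sema5a. Sema5a, a transmembrane semaphorin with thrombospondin repeats, had 8.05, 8.64 and 8.33 in mutant arrays, against 7.13, 7.97 and 7.41 in control arrays. The groups were apart by less than 0.1, and the adjusted p was 0.0567. Sema3c, a secreted ligand of neuropilins, averaged 9.04 ± 0.18 in mutant arrays and 9.36 ± 0.07 in control arrays (-0.32, adjusted p = 0.103). Sema6d, a transmembrane ligand of class A plexins, had a log2 fold change of 0.04 (SE 0.10). Sema3a and Sema3g, named after their values were seen because they lay just outside the threshold, are secreted class 3 semaphorins. Sema3a differed by 0.55 (adjusted p = 0.0504) and Sema3g by -0.33 (adjusted p = 0.0542), each with no overlap of the groups.

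Among plexins, 2 of 9 were lower. Beside Plxnc1 this was Plxna3, a class A plexin that pairs with neuropilins, with 5.39, 5.25 and 5.46 in mutant arrays, against 5.69, 5.70 and 5.75 in control arrays (log2 fold change -0.35, SE 0.08, adjusted p = 0.037). It was the smallest change among the called genes and was lost on leaving out any single array, with adjusted p between 0.0532 and 0.113. Plxnb2, a receptor for class 4 semaphorins, averaged 8.15 ± 0.13 in mutant arrays and 8.18 ± 0.05 in control arrays, with a log2 fold change of -0.03 (SE 0.09). Plxna2 had the highest log2 fold change of the family (0.65, adjusted p = 0.071), with mutant replicate 2 at 5.90 and the other mutant arrays at 5.32 and 5.13, against 4.64, 4.91 and 4.84 in control arrays.

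The neuropilins, shared by class 3 semaphorins and vascular endothelial growth factors, did not pass the test on their brightest probe sets. Nrp1 had 8.77, 8.96 and 8.88 in mutant arrays, against 8.68, 8.79 and 8.32 in control arrays (log2 fold change 0.28, adjusted p = 0.231), and the groups overlapped. Its other 3 probe sets were apart, with differences of 0.47, 0.42 and 0.38 (adjusted p = 0.0539, 0.0448 and 0.0646 over all probe sets), and with all 4 averaged Nrp1 was higher by 0.39 (adjusted p = 0.0354). Nrp2 had 6.37, 6.34 and 6.20 in mutant arrays, against 6.58, 6.59 and 6.38 in control arrays (-0.21, adjusted p = 0.197), with the highest mutant array just below the lowest control array.

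Ephrins contributed 2 lower genes and no higher gene. Efnb2, a transmembrane ephrin known as a marker of arterial endothelium, had 8.42, 8.48 and 8.55 in mutant arrays, against 8.96, 9.36 and 8.82 in control arrays. Its mutant arrays lay within 0.2 of each other and below all control arrays, and control replicate 2 was the highest. The log2 fold change was -0.56 (SE 0.14, adjusted p = 0.0424), a second bright probe set gave -0.64, and the remaining pair of probe sets, near 2.1, gave 0.04 and -0.02. Without control replicate 2 the log2 fold change was -0.40 and the call was lost, as it was on leaving out any other array but control replicate 3, with adjusted p up to 0.124. Efna5, a GPI-anchored ephrin, had 6.03, 5.60 and 5.88 in mutant arrays, against 6.26, 6.46 and 6.39 in control arrays (-0.53, SE 0.12, adjusted p = 0.032). It failed the test without any one array except mutant replicate 1, with adjusted p up to 0.0919. A dim second probe set of Efna5 gave -0.04 and was not called.

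The other ephrins had log2 fold changes between -0.38 and 0.35. Efnb3, a transmembrane ephrin best known from the spinal cord midline, had a log2 fold change of -0.08 (SE 0.12). Efna1, an A-class ephrin named for lying just outside the threshold, averaged 5.89 ± 0.06 in mutant arrays and 6.27 ± 0.16 in control arrays (-0.38, adjusted p = 0.0535).

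No Eph receptor passed the test in limma, against 3 of 13 at an unadjusted p under 0.05, a level that 26.5% of all genes reached, and log2 fold changes in this family ran from -0.81 to 0.95. Epha7 had 5.58, 6.42 and 5.39 in mutant arrays, against 4.83, 5.11 and 4.62 in control arrays (log2 fold change 0.95, SE 0.26, adjusted p = 0.0567). Mutant replicate 2 was high and the groups did not overlap. With its 4 probe sets averaged, Epha7 passed the test at 0.56 (adjusted p = 0.0462). Epha3, also just outside the threshold, had 4.44, 3.58 and 3.68 in mutant arrays, against 4.78, 4.84 and 4.49 in control arrays (-0.81, SE 0.22, adjusted p = 0.0577), and mutant replicate 1 was close to the lowest control array. Epha4, a receptor for both ephrin classes, averaged 5.83 ± 0.16 in mutant arrays and 5.51 ± 0.08 in control arrays (0.32, adjusted p = 0.0927). Of the 13 receptors 7 had means below an intensity of 16 in both groups.

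The Ephb receptors and ephrin-B genes that respond to β-catenin and TCF in mouse or human intestine were measured for 4 of 5 listed genes. By limma 0 were higher and 1 was lower, with a median log2 fold change of -0.27 over receptors and ephrins together. The list gives no direction of response for any gene, so the count and median are not a comparison with the intestine. Ephb2 was not among the measured guidance genes. The lower gene was Efnb2. Ephb3, a receptor of the crypt base in the intestine, had 6.56, 6.11 and 6.50 in mutant arrays, against 6.59, 6.75 and 6.52 in control arrays (-0.23, adjusted p = 0.34). Ephb4, the venous receptor for Efnb2, had 5.31, 5.09 and 4.81 in mutant arrays, against 5.31, 5.58 and 5.29 in control arrays (-0.32, adjusted p = 0.206). Efnb1, the 1 gene of the 4 with a positive difference, differed by 0.17 on that scale (adjusted p = 0.507), its other probe sets by 0.59 and 0.44, and the average of all 3 by 0.40 (adjusted p = 0.132). At an unadjusted p under 0.05, Efnb2 was again the only one of the 4, and it was lower.

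**Figure D3:**
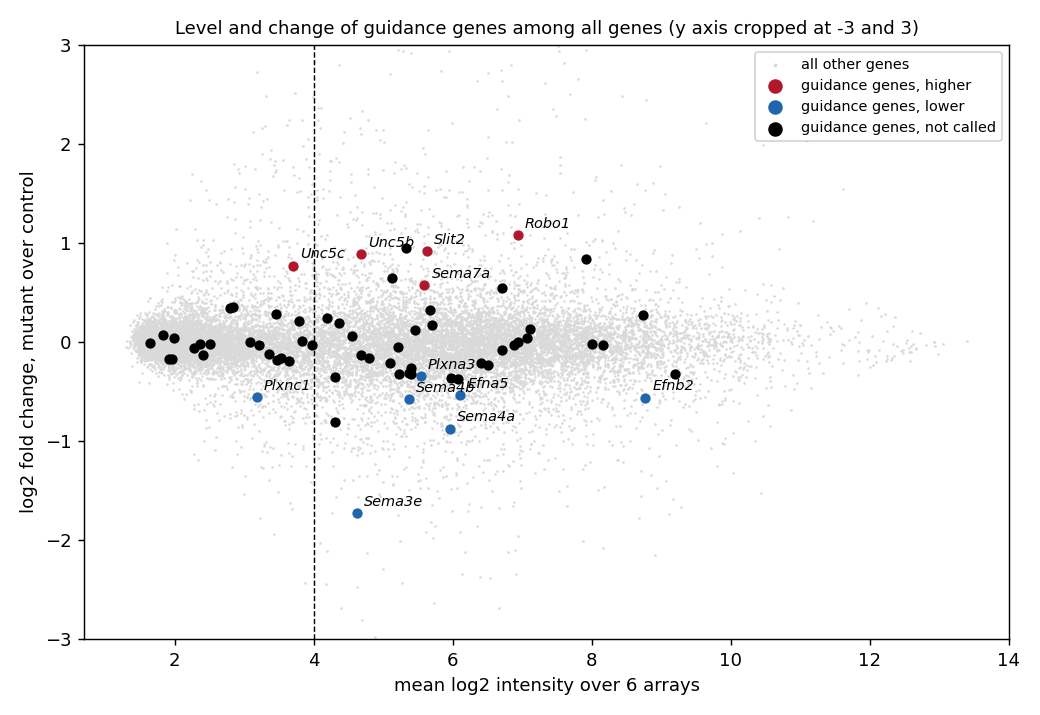
Log2 fold change, mutant over control, against mean log2 intensity over 6 arrays for all 18193 genes (gray) and for guidance genes called higher (red), lower (blue) or not called (black). The dashed line is an intensity of 16, the vertical axis leaves out 42 genes beyond 3 in either direction, and of the called guidance genes Plxnc1 and Unc5c have means left of the line.

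Genes that bind or relay these signals were followed in a list of 67 partner genes, of which 65 were measured. By limma 6 of the 65 rose and 10 fell, leaving 49 that missed the threshold. Among all genes 5.61% were higher and 6.36% lower, shares that also stand beside the counts of the separate lists below. The median log2 fold change was -0.09, against -0.01 for all genes. Without mutant replicate 2 the called partners numbered 7 in place of 16, with 3.19% of all genes higher and 2.71% lower. They numbered 8 without control replicate 1, with 2.64% and 2.04%. Tiam1, Flrt3, Gpc1, Flrt2, Vav3, Ntng1 and Rgma passed whichever array was left out. Flt1, Dpysl3, Flrt1, Fyn, Kalrn, Srgap3 and Nck1 each failed the test on leaving out any of 3 to 5 single arrays, mutant replicate 2 among them for all 7, with the highest adjusted p between 0.0719 for Flrt1 and 0.145 for Srgap3. Averaging all probe sets of a gene ended the calls of Neo1 (-0.29), Flrt1 (-0.27), Srgap3 (-0.23), Nck1 (-0.19) and Kalrn (-0.08), and moved Tiam1 to 0.61, Dpysl3 to 0.82, Flrt2 to -0.45 and Flt1 to 0.33 with their calls kept.

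The 13 genes of netrin, repulsive guidance and fibronectin leucine-rich proteins held 2 higher and 5 lower genes. Flrt3, a cell-surface protein that binds Unc5b and Robo1, had 6.67, 6.95 and 6.85 in mutant arrays, against 5.61, 5.65 and 5.49 in control arrays (log2 fold change 1.24, SE 0.10, adjusted p = 0.00056). Flrt2, its paralog, had 6.45, 6.34 and 6.28 in mutant arrays, against 7.01, 7.04 and 7.18 in control arrays (-0.72, SE 0.09, adjusted p = 0.00322). The paralogs thus differed in direction, each with no overlap of the groups. Ntng1, a GPI-anchored netrin relative that does not bind Dcc, was higher (0.75, adjusted p = 0.0143). Flrt1 was lower (-0.50, adjusted p = 0.0221) at a mean log2 intensity of 3.76, and Dcc, Neo1 and Rgma, given above, complete the lower genes.

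Membrane partners and heparan sulfate genes held 2 higher and 0 lower among 14 genes. At an unadjusted p under 0.05 in limma, Itga1 (log2 fold change 0.46) and Cd72 (0.25) were also higher and Met (-0.23) was lower. Gpc1, which encodes the heparan sulfate proteoglycan glypican 1 and binds Slit proteins, had 7.87, 8.13 and 7.83 in mutant arrays, against 6.74, 6.98 and 6.61 in control arrays (log2 fold change 1.17, SE 0.13, adjusted p = 0.00181). Flt1, a receptor for vascular endothelial growth factor, averaged 5.83 ± 0.16 in mutant arrays and 5.34 ± 0.16 in control arrays (0.49, adjusted p = 0.0381). The ligand Vegfa (0.16) and the receptor Kdr (0.19) did not pass the test.

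Cytoplasmic effectors held 2 higher and 5 lower genes among 38. Tiam1, an exchange factor that activates Rac, had the largest change of all partners, with 7.15, 7.61 and 7.52 in mutant arrays, against 5.63, 5.53 and 5.54 in control arrays (log2 fold change 1.86, SE 0.13, adjusted p = 0.000267). Vav3, an exchange factor that acts downstream of Eph receptors, had 5.72, 5.21 and 5.24 in mutant arrays, against 6.64, 6.87 and 6.64 in control arrays (-1.33, SE 0.15, adjusted p = 0.00228). Both genes had groups that lay well apart, in opposite directions. Dpysl3, of the collapsin response mediator family, was higher (0.53, adjusted p = 0.0255). The Src-family kinase Fyn (-0.86, adjusted p = 0.0209), the exchange factor Kalrn (-0.75, adjusted p = 0.0345), the GTPase-activating protein Srgap3 (-0.46, adjusted p = 0.0406) and the adaptor Nck1 (-0.40, adjusted p = 0.0265) were lower.

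**Figure D4:**
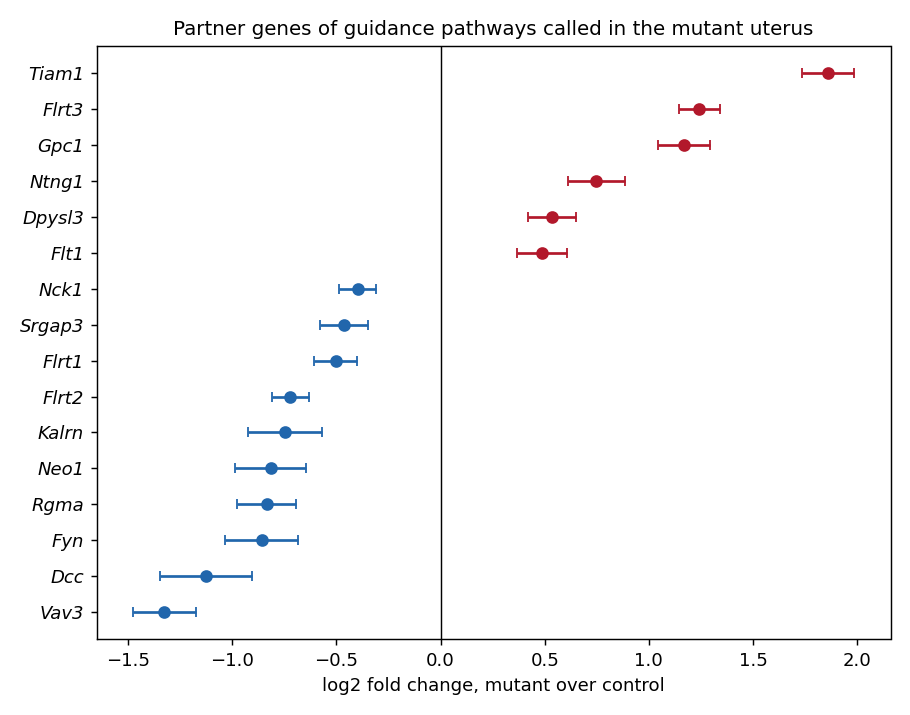
Log2 fold change, mutant over control, of the 16 partner genes that passed the test, with the standard error from limma over 3 arrays a group. The 6 higher genes (red) run from 0.49 for Flt1 to 1.86 for Tiam1, and the 10 lower genes (blue) run from -1.33 for Vav3 to -0.40 for Nck1.

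Marker lists of other cell types were read beside these results, with each sum also taken without its brightest gene, a step chosen after seeing the data. Summed intensity of 12 blood endothelial markers was 1898 to 1969 in mutant arrays and 2052 to 2288 in control arrays, with 1 of 12 called lower (Tek). Without Sox17, the brightest of them, the sums were 1023 to 1239 in mutant arrays and 1100 to 1210 in control arrays, and the mean log2 intensity of all 12 markers also overlapped, at 6.31 to 6.59 in mutant arrays and 6.54 to 6.64 in control arrays. These values stand beside Efnb2, Unc5b and Flt1, genes known from endothelium.

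Macrophage markers summed to 1764 to 1908 in mutant arrays and 1465 to 1516 in control arrays, with 5 of 11 higher. Without Lyz2 the sums were 1203 to 1362 in mutant arrays and 1035 to 1097 in control arrays, so the groups stayed apart, in the direction of Sema7a and opposite to Plxnc1 and Sema4a. Adipocyte markers summed to 2542 to 4012 in mutant arrays and 227 to 1490 in control arrays, with 3 of 8 higher, and without Fabp4 to 1057 to 1888 in mutant arrays and 132 to 587 in control arrays. Schwann cell and neuron markers summed to 94 to 111 in mutant arrays and 114 to 129 in control arrays, with 1 of 12 called lower, the myelin gene Mbp. Without Mbp their sums overlapped, at 71 to 79 in mutant arrays and 75 to 82 in control arrays, and 10 of the 12 genes were below an intensity of 16 on all arrays, the range in which Dcc also lay. The part of these cell types in the changes of guidance genes was not tested.

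Sums of the main uterine cell types overlapped between the groups, with and without the brightest gene of each list. Epithelial markers summed to 4223 to 5989 in mutant arrays and 5400 to 6513 in control arrays. Of these markers 2 of 14 were lower, Krt18 (log2 fold change -0.80) and Elf3 (-0.85). Without Krt8 the sums were 3488 to 4934 in mutant arrays and 4380 to 5096 in control arrays. Stromal markers summed to 25620 to 27129 in mutant arrays and 26800 to 27936 in control arrays, with 1 of 12 higher, Hand2 (1.49). Without Col3a1 the sums were 17835 to 19340 in mutant arrays and 18811 to 20270 in control arrays. Smooth muscle markers summed to 11321 to 12945 in mutant arrays and 11330 to 13161 in control arrays, with 0 of 10 called by limma. At an unadjusted p under 0.05, which 26.5% of all genes reached, 3 passed, Myocd higher and Lmod1 and Synpo2 lower. Without Acta2 the sums were 6039 to 7391 in mutant arrays and 6612 to 8037 in control arrays.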

How the data were processed

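The authors deposited linear intensities of 45037 probe sets on 6 arrays, made with RMA according to the submitters' processing notes, with no version given. For the array analysis the methods point to previous work. Intensities were raised to a floor of 1, which changed no value, and turned into log2. Probe sets with 1 gene symbol (34945) were reduced to the one with the highest mean for each of 18193 genes. Probe sets with several symbols (932) or none (9160) were not used for genes. The 3 mutant arrays were tested against the 3 control arrays by lmFit and eBayes of limma 3.58.1 (R 4.3.3). P-values were adjusted by Benjamini and Hochberg's method across the genes, with a threshold of 0.05, and the fit was tested on simulated data. The number of arrays, 3 a group, limits the precision. Standard deviations are over arrays, and standard errors come from limma.

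The members and lists were chosen with earlier results of these data known. The genes named are all called members and partners, the 3 members with the highest mean level in each family, Dcc and Neo1. Any other gene was named after its values were seen. All 66 symbols were found in the RefSeq table. Alternatives changed the centring, normalization, probe set choice, filter, floor, variance trend, test, block, thresholds and arrays included.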

Additional observations from a re-analysis of the deposited data

How the results depend on the processing

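Under 16 alternatives, the 12 called guidance genes kept call and direction in 127 of 190 pairs of gene and alternative and lost the call in 63, and none reversed. Robo1, Slit2, Unc5b and Sema3e lost it only under Student's t-test, which the methods do not name for the arrays. After the adjustment used here it called 0 guidance genes higher and 0 lower and 2 partner genes, Tiam1 and Flrt3. The cause was not tested. Leaving out 1 array gave 3 to 6 higher and 1 to 6 lower guidance genes and 7 to 17 called partner genes, the lowest counts of guidance genes without control replicate 1 and of partner genes without mutant replicate 2. Over all genes the fits without 1 array gave 2.64% to 5.34% higher and 2.04% to 6.26% lower. With an intensity trend 8 guidance genes were higher and 7 lower, against 5.94% and 6.62% of all genes. With the study's thresholds (unadjusted p under 0.05 and fold change over 1.5) 7 were higher and 3 lower, against 4.09% and 4.16% of all genes. The median log2 fold change of guidance genes stayed between -0.07 and -0.02. A fit with replicate block gave 9 higher and 5 lower guidance genes, against 5.31% and 5.96% of all genes. The replicate numbers are not stated to pair the arrays, so the main fit used no block. Deviations from the group means correlated at 0.01, 0.21 and 0.16 within the 3 numbers. Arrays of different numbers were not compared in this way, so these values cannot decide whether the numbers pair the arrays. Averaging all probe sets of a gene moved Robo1 to 0.48 and Slit2 to 0.46 on the log2 scale, since their dim probe sets enter the mean. With 62.3% or more of probe sets below an intensity of 16, changes of dim genes such as Plxnc1, Unc5c and Dcc are the least certain.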
